A study of Mus musculus with 17 samples.

Results

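The 39 genes described here build and police the mitotic spindle: the checkpoint, its kinases, the chromosomal passenger complex, the kinetochore, spindle motors, separase and its inhibitors, cyclin B with CDK1, and the genes of centriole duplication. They were given as a list of names, chosen with earlier results of these data known. They are 39 of the 28600 genes listed in the tables of either model. RNA-seq was available for 17 mice, 1 library each, all carrying the Spi1 transgene (TgSpi1), which blocks erythroid differentiation and gives a preleukaemic expansion of erythroid blasts. Erythroid blasts were kept in culture with erythropoietin (EPO) and diluted shortly before extraction. Model 1, on the mixed DBA2JxFVB/N background, held 4 TgSpi1FA+/+ preleukaemic mice (FA+/+ PL: preleukemic_138, preleukemic_445, preleukemic_451 and preleukemic_479), 3 TgSpi1FA-/- preleukaemic mice (FA-/- PL, preleukemic_40, preleukemic_77 and preleukemic_224), which lack the Fanconi anaemia gene Fanca, and 3 TgSpi1FA-/- leukaemic mice (FA-/- L, leukemic_26, leukemic_28 and leukemic_39). Model 2, on DBA2J, held 4 preleukaemic (preleukemic_633, preleukemic_663, preleukemic_812 and preleukemic_837) and 3 leukaemic (leukemic_601, leukemic_606 and leukemic_921) TgSpi1FA+/+ mice. Values for single libraries are given below in this order of mice. The labels give no age. According to the study, preleukaemic blasts need EPO and do not form tumours, leukaemic blasts do, and the leukaemias on DBA2J arose after repeated blood transfusion. Each library came from a separate mouse, so the spread within a leukaemic group is a spread between tumours. The study lists a Kit mutation for leukemic_26 and an Nras mutation for leukemic_28 and leukemic_39, so the FA-/- L group mixes tumours with different mutations. Fanca-deleted mice derived from FVB/N and the transgene from DBA2/J, so that in model 1 the genotype at Fanca cannot be told apart from the strain of the chromosome around it.

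At each division, kinetochores form on centromeres marked by the histone variant CENP-A, and microtubules of the spindle attach to them through the NDC80 complex. Unattached kinetochores bring MAD and BUB proteins together into an inhibitor of CDC20, which keeps the anaphase-promoting complex from destroying securin and cyclin B until every chromosome is attached. Aurora A works at spindle poles with TPX2, Aurora B works at centromeres with INCENP, survivin and borealin, and PLK4 with STIL and CEP152 starts new centrioles. Most of these genes are transcribed late in the cell cycle, so that in a bulk culture their level also follows the share of cells in G2 and mitosis. Fewer cells in that stage and less RNA per cell cannot be told apart in these data.

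Late cell cycle genes are known for a pair of promoter elements, the CCAAT box and the cell cycle genes homology region. Promoter windows of 300 bases (250 before and 50 after the start annotated by RefSeq, GRCm38.p6) were found for 34 of the 39 genes. The letters TTTGAA or TTTAAA, searched on both strands, occurred in 25 of the 34 (73.5%) and in 27.6% of all 32851 windows, and CCAAT occurred in 24 (70.6%) and in 37.4% of all windows. Both occurred together in 20 of the 34 (58.8%) against 10.7% of all windows, among them Bub1b, Ccnb1, Ccnb2, Cdc20, Cdk1, Plk1, Prc1 and Ttk. The longer E2F letters TTTCGCGC or TTTGGCGC were found in 1 member, Cdk1, and in 0.813% of all windows. The 150 bases before the start are shown for the 3 genes whose level, or whose difference between models, is reported at greatest length below, with matches in capitals on the gene's strand.
Aurka, chr2:172370571-172370720, minus strand: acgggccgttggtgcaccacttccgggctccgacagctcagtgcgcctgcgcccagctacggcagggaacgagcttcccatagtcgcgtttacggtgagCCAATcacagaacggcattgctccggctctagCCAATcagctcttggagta
Cenpa, chr5:30666736-30666885, plus strand: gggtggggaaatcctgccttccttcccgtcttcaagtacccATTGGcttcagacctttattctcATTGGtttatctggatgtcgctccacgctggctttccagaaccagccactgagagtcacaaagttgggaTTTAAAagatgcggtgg
Birc5, chr11:117849087-117849236, plus strand: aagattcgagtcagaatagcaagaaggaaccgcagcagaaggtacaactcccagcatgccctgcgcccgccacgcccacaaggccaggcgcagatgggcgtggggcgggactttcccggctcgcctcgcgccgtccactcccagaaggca
Aurka and Cenpa each held 2 CCAAT boxes here, on the gene's strand in Aurka and on the opposite strand in Cenpa, where they read ATTGG. Cenpa also held TTTAAA 17 bases before the start, and Aurka held TTTAAA and TTTGAA 18 and 33 bases into the transcript. Birc5 had no match in these 150 bases and 1 TTTAAA 220 bases before its start. The GENCODE gene models used for the coordinates below start elsewhere for some genes, and for Cenpa inside the stretch shown. A match is a description of letters and was not tested as a binding site. Aurka and Cenpa moved in opposite directions in the leukaemic cells of model 1, and whether these letters bear on that was not tested.

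Total counts per library were 29964576 to 38217654 in model 1 and 37726753 to 40514205 in model 2, and the members tested had 853 to 18913 counts in each library. Fanca lay between 28.2 and 83.5 CPM (counts scaled to a common library total with edgeR's TMM factors) in the FA+/+ PL mice and at or under 2.30 CPM in every FA-/- library of model 1. Spi1 was at 467 to 1061 CPM in both preleukaemic groups of model 1, whereas the FA-/- L libraries spread from 3.88 CPM in leukemic_39 to 629.9 CPM in leukemic_26, so that Spi1 message, counted without telling transgene from endogenous gene, was nearly absent from 1 leukaemia. The erythroid label was checked against 15 erythroid markers, of which 14 exceeded 1 CPM in each group, and lymphoid markers summed to at most 0.548 CPM in any library. The summed level of the erythroid markers was lower in leukaemic than in preleukaemic libraries of both models (3108 to 5457 against 7027 to 8136 CPM for FA-/- in model 1, and 3811 to 6189 against 6347 to 11160 CPM in model 2). The 7 mast cell markers summed to 158.9 to 200.2 CPM in the leukaemic and 31.2 to 91.2 CPM in the preleukaemic mice of model 2. In FA+/+ PL of model 1 their sum spread from 18.0 to 207.1 CPM. The 6 megakaryocyte markers summed to 173 to 274 CPM in FA-/- L and 45.6 to 59.8 CPM in FA-/- PL mice. FA+/+ PL mice had 59.7 to 200.8 CPM, which overlaps the leukaemic range. Among these markers Itga2b was at 16.1 to 21.8 CPM in FA-/- PL and 92.8 to 243 CPM in FA-/- L mice. Pf4, Gp1ba and Gp9 overlapped between those groups. The part of these shifts in the results below was not tested.

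Of the 39 genes, 38 were found and passed the filter on low counts in both models. Aurkc, a kinase of germ cells, was not listed in the table of model 1 and was between 0 and 0.0284 CPM in model 2, and it was not tested. Together the 38 genes made up 5865 to 6188 CPM in FA-/- L, 5953 to 6455 CPM in FA-/- PL and 6049 to 6668 CPM in FA+/+ PL libraries, and 4837 to 5913 CPM in the leukaemic and 4377 to 5643 CPM in the preleukaemic libraries of model 2. The groups overlapped within each model, so that the summed mitotic message did not separate leukaemic from preleukaemic cultures.

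Per kb of annotated exon, which is needed to compare genes with each other, the mean levels in model 1 ran from 7.48 CPM per kb for Cep152, a centriole scaffold, to 101 CPM per kb for Ccnb2, a B-type cyclin. Cdc20, the target of the checkpoint, followed at 100.6 CPM per kb and Tpx2, the activator of Aurora A, at 81.7. Ccnb2 was also highest in model 2 (80.2 CPM per kb), followed there by Ccnb1 (68.4) and the checkpoint kinase gene Bub1 (62.9). Ccnb1 had rank 21 in model 1 with 23.8 CPM per kb, and a second deposited table of 7 of the same model 1 mice gave Ccnb1 a CPM 2.81 times that of the first (median over mice), whereas the median over the 38 genes was 0.777 times. The level of Ccnb1 thus differed between tables of the same mice, and its rank is uncertain. The pseudogenes Ccnb1-ps and Ccnb2-ps had 4 to 69 counts per library.

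The map of levels relative to the FA+/+ PL mean shows where single genes of the group departed from it in model 1 and model 2.

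**Figure D1:**
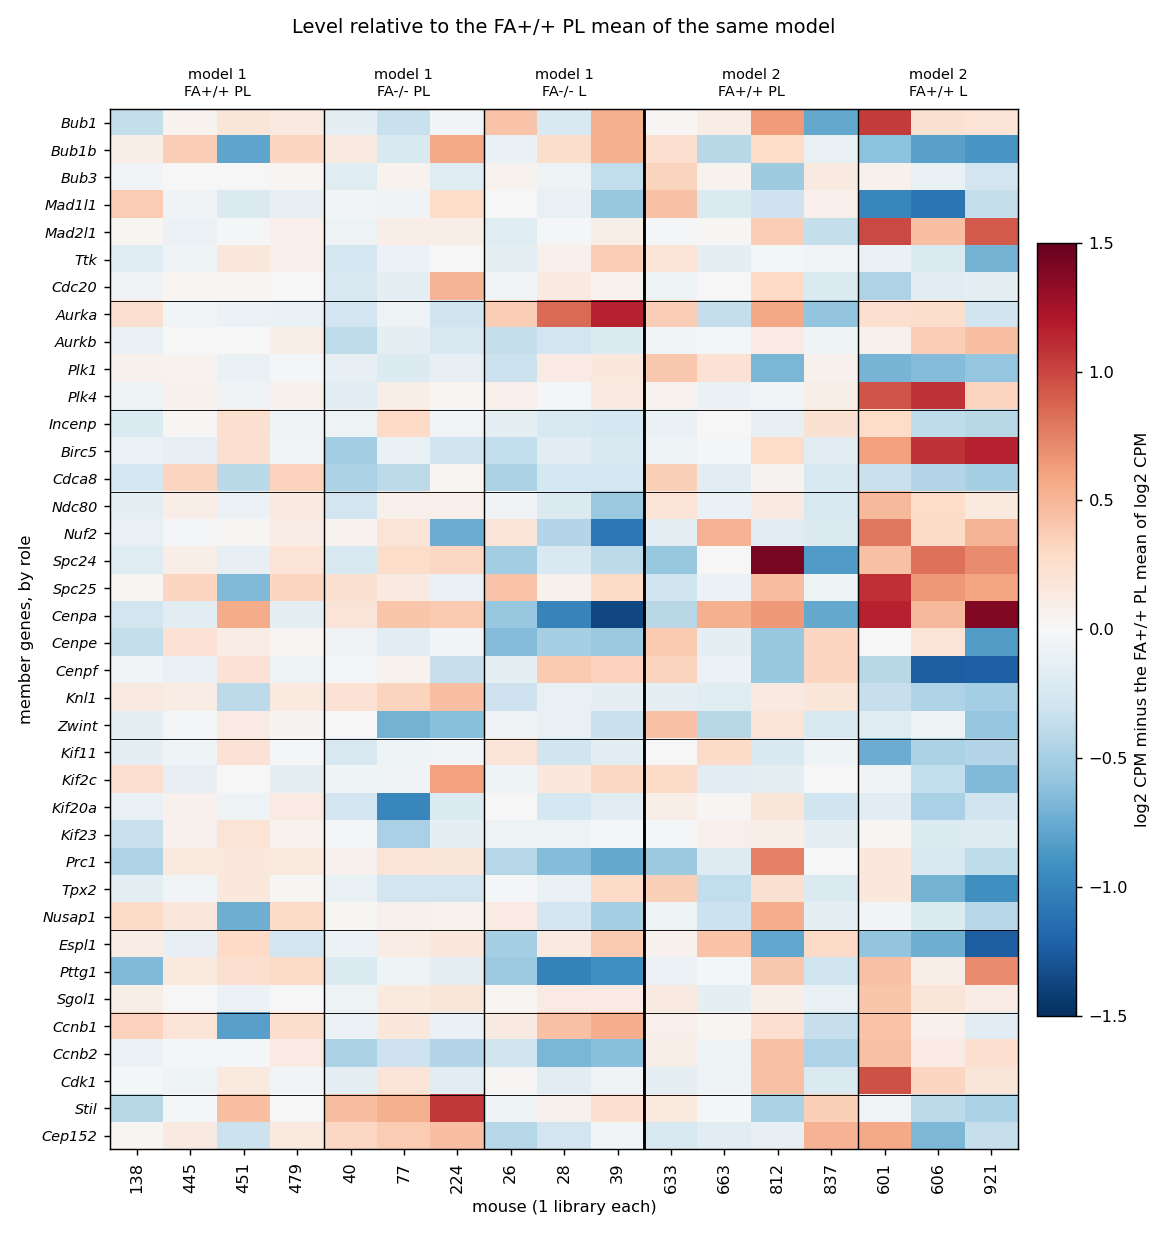
Level of the 38 genes tested (rows, grouped by role) in each of the 17 libraries (columns, by mouse number and group), as log2 CPM minus the mean log2 CPM of the FA+/+ PL libraries of the same model; red is higher, blue lower. Aurka is red and Cenpa blue in the FA-/- L mice, most strongly in leukemic_39 (1.16 and -1.37), while Cenpa, Birc5, Mad2l1 and Plk4 are red in the leukaemic mice of model 2.

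Leukaemic and preleukaemic cells that both lack FANCA were compared to see which genes change with leukaemic progression in that setting. Aurka, the Aurora A kinase of the spindle poles, was 2.06-fold higher in FA-/- L, and Cenpa, the centromeric histone, was 2.43-fold lower. Prc1, which bundles the microtubules of the central spindle, was 1.69-fold lower and Cep152 was 1.54-fold lower. These 4 of the 38 genes tested were called, 1 higher and 3 lower. A call needed an adjusted p below 0.05 by edgeR's quasi-likelihood test together with a 1.5-fold change, and 13.3% of the 13393 genes tested met it (6.82% higher, 6.49% lower). The median log2 fold change of the 38 genes was -0.03, against -0.0012 for all genes. Of the 38, 32 (84.2%) stayed within 1.5-fold, against 54.8% of all genes. Shares over all genes, here and below, include genes of low count and were not matched to the members for level.

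Aurka (chr2:172356190-172370535, minus strand, GRCm38, GENCODE) was measured at 124, 144 and 124 CPM in the FA-/- PL mice and at 196, 273 and 338.5 CPM in the L mice. Every leukaemic library lay above every preleukaemic one of either genotype, since the FA+/+ PL mice had 141 to 179 CPM. Its log2 fold change was 1.04 ± 0.19 (SE, adjusted p = 0.0148, edgeR), and it was called without each mouse in turn except preleukemic_224, where the adjusted p was 0.05445 (edgeR). The other kinases tested were not called. Plk1, a kinase of mitotic entry and spindle assembly, was at 155, 147 and 155 CPM in PL and 135, 184 and 189 CPM in L mice. Aurkb, the kinase of the chromosomal passenger complex, was at 119.55, 142 and 131 CPM in PL and 122, 128 and 134 CPM in L mice, and Plk4 changed by 0.07 ± 0.11 on the log2 scale. The 95% interval of the log2 change was -0.27 to 0.20 for Aurkb and -0.17 to 0.31 for Plk4. Tpx2, the partner that activates Aurora A, was at 369, 323 and 327 CPM in PL and 385, 369 and 479.8 CPM in L mice, and it was not called (log2 fold change 0.28 ± 0.13, adjusted p = 0.186, edgeR).

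Cenpa (chr5:30666777-30674830, plus strand) was at 343, 398 and 393 CPM in FA-/- PL and at 202, 149 and 116 CPM in L mice. The groups did not overlap, and the highest leukaemic value was below the FA+/+ PL values of 248, 269, 440.1 and 273 CPM. The log2 fold change was -1.28 ± 0.26 (adjusted p = 0.018, edgeR). Other kinetochore genes shifted less. Knl1, the scaffold that recruits the BUB proteins, went from 213, 229.7 and 249.9 CPM to 148, 169 and 165 CPM (log2 fold change -0.52, adjusted p = 0.0526, edgeR), and Cenpe, a kinetochore motor, from 207, 192 and 208 CPM to 137, 152 and 146 CPM (log2 fold change -0.48, adjusted p = 0.0573, edgeR). For both genes the groups did not overlap, but neither the adjusted p nor the 1.5-fold change (0.585 on the log2 scale) was reached. Of the NDC80 complex, Spc24 had a log2 fold change of -0.51 (adjusted p = 0.089, edgeR), and Ndc80, Nuf2 and Spc25 had -0.23, -0.25 and 0.17. Cenpf, a large kinetochore protein, was at 115, 121 and 91.0 CPM in PL and 105, 152 and 148 CPM in L mice, and these groups overlapped. Of the 9 kinetochore genes, 1 fell and 8 were not called.

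Prc1 (chr7:80294450-80316259, plus strand) was at 159.6, 175.5 and 172 CPM in FA-/- PL and 113, 96.9 and 89.6 CPM in L mice, with a log2 fold change of -0.76 ± 0.17 (adjusted p = 0.0261, edgeR). All 3 leukaemic values lay below the preleukaemic ones, but FA+/+ PL preleukemic_138 had 111 CPM, within the leukaemic range. The 6 other spindle genes were not called and had log2 fold changes from -0.24 (Nusap1, a microtubule-bundling protein) to 0.30 (Kif20a, a motor of cytokinesis). Cep152 (chr2:125563088-125625113, minus strand) was at 51.0, 53.3 and 55.8 CPM in PL and 30.4, 33.6 and 39.8 CPM in L mice (log2 fold change -0.63 ± 0.17, adjusted p = 0.0407, edgeR). Its partner Stil was at 62.4, 65.7 and 94.4 CPM in PL and 43.5, 47.5 and 53.9 CPM in L mice, which did not overlap but did not pass the test (log2 fold change -0.62, adjusted p = 0.109, edgeR).

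Of the 7 checkpoint genes none was called, and log2 fold changes ran from -0.28 for Mad1l1, the kinetochore anchor of MAD2, to 0.45 for Bub1. Bub1 was at 182, 159.5 and 195 CPM in PL and 272, 172 and 292 CPM in L mice, with leukemic_28 inside the preleukaemic range. Bub1b, the gene of BUBR1, was at 316, 245 and 425.6 CPM in PL and 268, 344 and 415 CPM in L mice. Mad2l1, the gene of MAD2, changed by -0.07 (95% interval -0.31 to 0.17), Bub3 by -0.02 (-0.31 to 0.27) and Cdc20 by -0.03 (-0.44 to 0.38), each interval staying under 1.5-fold. Among the chromosomal passenger genes, Incenp was at 277, 358 and 282 CPM in PL and 263, 248 and 242 CPM in L mice, and Birc5 (survivin) at 105, 140.2 and 122 CPM in PL and 116, 135 and 127.5 CPM in L mice. Neither was called, although the Incenp groups did not overlap. Cdk1, the kinase that drives mitosis, was at 197, 249 and 194 CPM in PL and 219, 193 and 209.7 CPM in L mice. Pttg1 (securin) had a log2 fold change of -0.67 (adjusted p = 0.0911, edgeR) with groups that did not overlap, and Espl1 (separase), its target, was at 155.5, 178 and 185 CPM in PL and 116, 180.3 and 216 CPM in L mice. In all, 10 of the 38 genes did not overlap between the groups (1 higher, 9 lower), where 38.7% of all genes tested did not (19.4% higher, 19.3% lower).

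**Figure D2:**
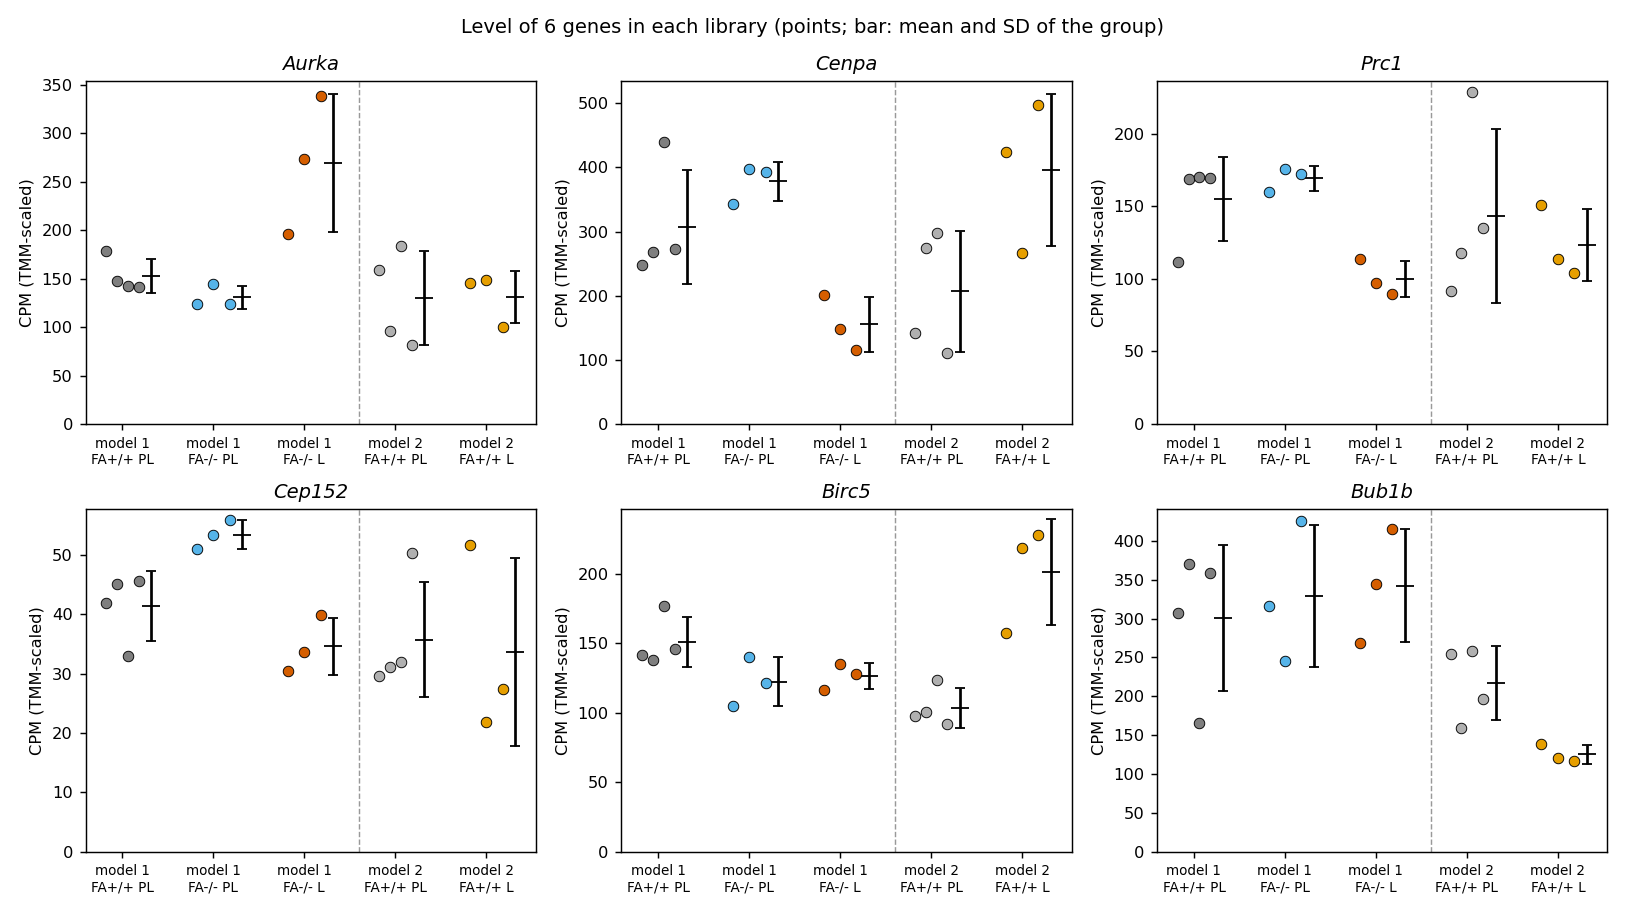
CPM (linear axis from 0) of 6 genes in each library of the 5 groups, with points for mice and bars for the mean and SD of each group; the dashed line separates the models. Aurka, Cenpa, Prc1 and Cep152 were called in FA-/- L against FA-/- PL, and Birc5 and Bub1b had the smallest p of the members in each direction in model 2.

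The 4 calls depended on single mice. Without preleukemic_77, leukemic_28 or leukemic_39 only Aurka was called, without preleukemic_40 Aurka and Cenpa, without leukemic_26 Aurka, Cenpa and Prc1, and without preleukemic_224 none. The number called over all genes moved at the same time, from 1782 to between 414 and 2319. The directions of the 4 genes held in each of these fits. DESeq2 called Aurka, Cenpa and Prc1, beside 21.8% of genes (11.9% when all genes of any count entered), and edgeR with an offset for exon length called Aurka and Cenpa, beside 12.9%.

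FA-/- PL and FA+/+ PL cells were compared to see what the loss of FANCA changes before leukaemia. No member was called, and 1 gene of 13393 was called in all (0.00747%). DESeq2 called 1.72% of genes (0.984% when all genes of any count entered) and again no member. Unadjusted p was under 0.05 for 6 members (15.8%) and for 8.65% of all genes, and the smallest adjusted p of a member was 0.535 (edgeR). Ccnb2 was at 137, 153 and 140.3 CPM in FA-/- PL and at 179, 187, 188 and 208 CPM in FA+/+ PL mice (log2 fold change -0.41 ± 0.12). Aurkb showed the same order, at 119.55, 142 and 131 CPM against 145, 156, 154 and 167 CPM (-0.25 ± 0.10), and for both genes the groups did not overlap. Kif20a was at 194, 119.7 and 206 CPM against 220.2, 247, 224.1 and 257 CPM, also without overlap, and preleukemic_77 was the lowest. Zwint, a kinetochore gene, was at 293.5, 179 and 190.5 CPM against 266, 288, 320.5 and 302 CPM, with preleukemic_40 inside the FA+/+ range. The centriole genes lay the other way. Stil was at 62.4, 65.7 and 94.4 CPM against 33.9, 44.7, 61.8 and 45.1 CPM (log2 fold change 0.68 ± 0.22), and Cep152 at 51.0, 53.3 and 55.8 CPM against 41.9, 45.1, 32.9 and 45.5 CPM (0.37 ± 0.16). Knl1 was at 213, 229.7 and 249.9 CPM against 200.3, 198, 139 and 202 CPM. All 3 had FA-/- values above each FA+/+ value, and none passed the adjustment. In all, 7 members did not overlap between the groups (3 higher, 4 lower), beside 8.53% of all genes (4.26% higher, 4.27% lower). Of the 38 genes, 37 were within 1.5-fold (97.4%, beside 75.1% of all genes), with Stil the exception.

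FA-/- L cells were also set against FA+/+ PL cells, a comparison that shares its leukaemic libraries with the first and its control libraries with the second. Aurka was 1.76-fold higher (log2 fold change 0.82 ± 0.18, adjusted p = 0.0322) and Cenpa 1.98-fold lower (-0.98 ± 0.24, adjusted p = 0.0438), both by edgeR, and these were the members called (2 of 38, beside 7.01% of all genes, 3.55% higher and 3.46% lower). Ccnb2 and Cenpe passed the adjusted p (0.0351 and 0.0393, edgeR) but not the fold, with log2 fold changes of -0.53 and -0.58 against a threshold of 0.585. Ccnb2 was at 155, 118 and 123 CPM in L mice and Cenpe at 137, 152 and 146 CPM, below all FA+/+ PL values, of which the lowest were 179 and 167 CPM. In all, 7 members did not overlap (1 higher, 6 lower), beside 25.7% of all genes (12.8% higher, 12.9% lower). Ccnb1, the other B-type cyclin, was at 98.9, 122 and 131 CPM in L and 115, 104, 51.1 and 108 CPM in PL mice. No member was called without any 1 of preleukemic_445, preleukemic_479, preleukemic_451, leukemic_28 or leukemic_39, or with preleukemic_445 and preleukemic_479, which were nearly alike, summed to 1 library, and 5 were called without preleukemic_138 or without leukemic_26. DESeq2 called Aurka, Cenpa, Prc1 and Pttg1, beside 15.5% of genes (8.62% when all genes of any count entered), and edgeR with an offset for exon length called Aurka and Pttg1, beside 6.78%.

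The second table, with 35497594 to 171572736 counts per library, held the same comparison for the same 7 mice. Aurka was there at 133, 113, 89.5 and 126 CPM in FA+/+ PL and at 105, 209 and 286 CPM in L mice, so that leukemic_26 fell inside the preleukaemic range (log2 fold change 0.79, adjusted p = 0.255, edgeR). Cenpa was at 440.2, 531, 579 and 461 CPM and at 299.8, 149 and 161 CPM, again without overlap (log2 fold change -1.31, adjusted p = 0.0778, edgeR). No member was called in this table, where 1.59% of 16799 genes were, and 29 of the 38 genes had the same sign as in the first table. The share over all genes was not computed. Both tables hold the same mice, so this is no independent repeat.

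In model 2, where leukaemia arose with Fanca intact, the members spread further apart, but none passed edgeR's test, and nor did any of the 12970 genes tested (0%). Birc5, Plk4, Mad2l1, Spc25 and Cenpa were higher, and Bub1b, Cenpf, Kif11, Mad1l1, Espl1, Knl1 and Plk1 lower, each at an unadjusted p under 0.05. These were 12 of 38 members (31.6%), beside 19.9% of all genes. The smallest adjusted p of a member was 0.162 (edgeR). The median log2 fold change of the 38 was -0.14, against -0.03 for all genes, and 28 of them (73.7%) were within 1.5-fold, beside 58.9% of all genes. DESeq2's Wald test called 5 members (Birc5, Mad2l1 and Plk4 higher, Bub1b and Cenpf lower), where it called 9.23% of the genes, but with all genes of any count in the fit it called Birc5 alone, with 1.98% of genes.

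Birc5 was at 97.6, 100.3, 124 and 91.6 CPM in the preleukaemic and at 158, 218 and 228 CPM in the leukaemic mice. The groups did not overlap, and the log2 fold change was 0.96 ± 0.20. Its complex partners were not called by either test: Incenp was at 153, 162, 149 and 191 CPM and at 197, 126 and 122 CPM, Cdca8 (borealin) had a log2 fold change of -0.44, and Aurkb one of 0.30. Plk4, the kinase that starts centriole duplication, was at 86.3, 77.6, 80.8 and 88.1 CPM and at 159.7, 176 and 104 CPM (0.82 ± 0.21), while Stil was at 41.6, 37.2, 27.0 and 48.2 CPM and at 36.5, 28.7 and 27.2 CPM.

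The checkpoint genes split. Mad2l1 was at 214, 220.1, 281 and 170.5 CPM in preleukaemic and at 432, 298 and 413 CPM in leukaemic mice (log2 fold change 0.78 ± 0.23), all leukaemic values being the higher. Bub1b was at 254, 159.6, 258 and 196 CPM and at 139, 121 and 116 CPM (-0.79 ± 0.22), and Mad1l1 at 72.0, 45.7, 42.7 and 55.9 CPM and at 26.8, 24.9 and 41.2 CPM (-0.81 ± 0.28), all leukaemic values being the lower. Bub1 was at 219.85, 233, 337.5 and 127 CPM and at 449, 254.5 and 250.35 CPM, with overlap.

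At the kinetochore, Spc25 was at 38.9, 45.0, 66.1 and 45.2 CPM and at 102, 74.8 and 72.1 CPM (log2 fold change 0.77 ± 0.24), and the other NDC80 genes Ndc80, Nuf2 and Spc24 had log2 fold changes of 0.30, 0.51 and 0.37. Cenpa was at 142, 275, 298 and 111 CPM and at 424, 266 and 498 CPM, with leukemic_606 inside the preleukaemic range (0.94 ± 0.39). Cenpf was at 91.9, 68.7, 49.1 and 90.7 CPM and at 54.4, 30.8 and 31.3 CPM, with leukemic_601 above preleukemic_812 (-0.95 ± 0.31). All 7 motor and spindle genes had negative log2 fold changes by edgeR, from -0.55 to -0.12, but with an offset for exon length Kif23 turned to 0.13 and Prc1 to 0.01, and Kif11 shrank to -0.30. Of these, Kif11, the motor that pushes spindle poles apart, was at 309.9, 379, 266 and 298 CPM and at 186, 224.1 and 229.8 CPM (-0.55 ± 0.19), without overlap, and Tpx2 was at 317, 193, 291.5 and 213 CPM and at 277, 151 and 131 CPM. Plk1 was at 92.8, 81.5, 43.7 and 73.2 CPM and at 43.2, 44.9 and 47.0 CPM, and preleukemic_812 was as low as the leukaemias. Espl1 was at 80.1, 102, 44.3 and 93.4 CPM and at 50.6, 46.0 and 32.4 CPM, preleukemic_812 again lying with the leukaemic values. Cdk1 was at 183, 192, 276 and 175 CPM and at 394, 253 and 231 CPM. Aurka was at 158.5, 96.1, 183.5 and 81.7 CPM and at 145, 148 and 99.9 CPM, and its log2 fold change was 0.01 (95% interval -0.73 to 0.75), an interval wide enough to hold a change of over 1.5-fold either way. With the length offset it was -0.15. In all, 9 members did not overlap between the groups (4 higher, 5 lower), where 20.1% of all genes did not (9.65% higher, 10.4% lower).

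**Figure D3:**
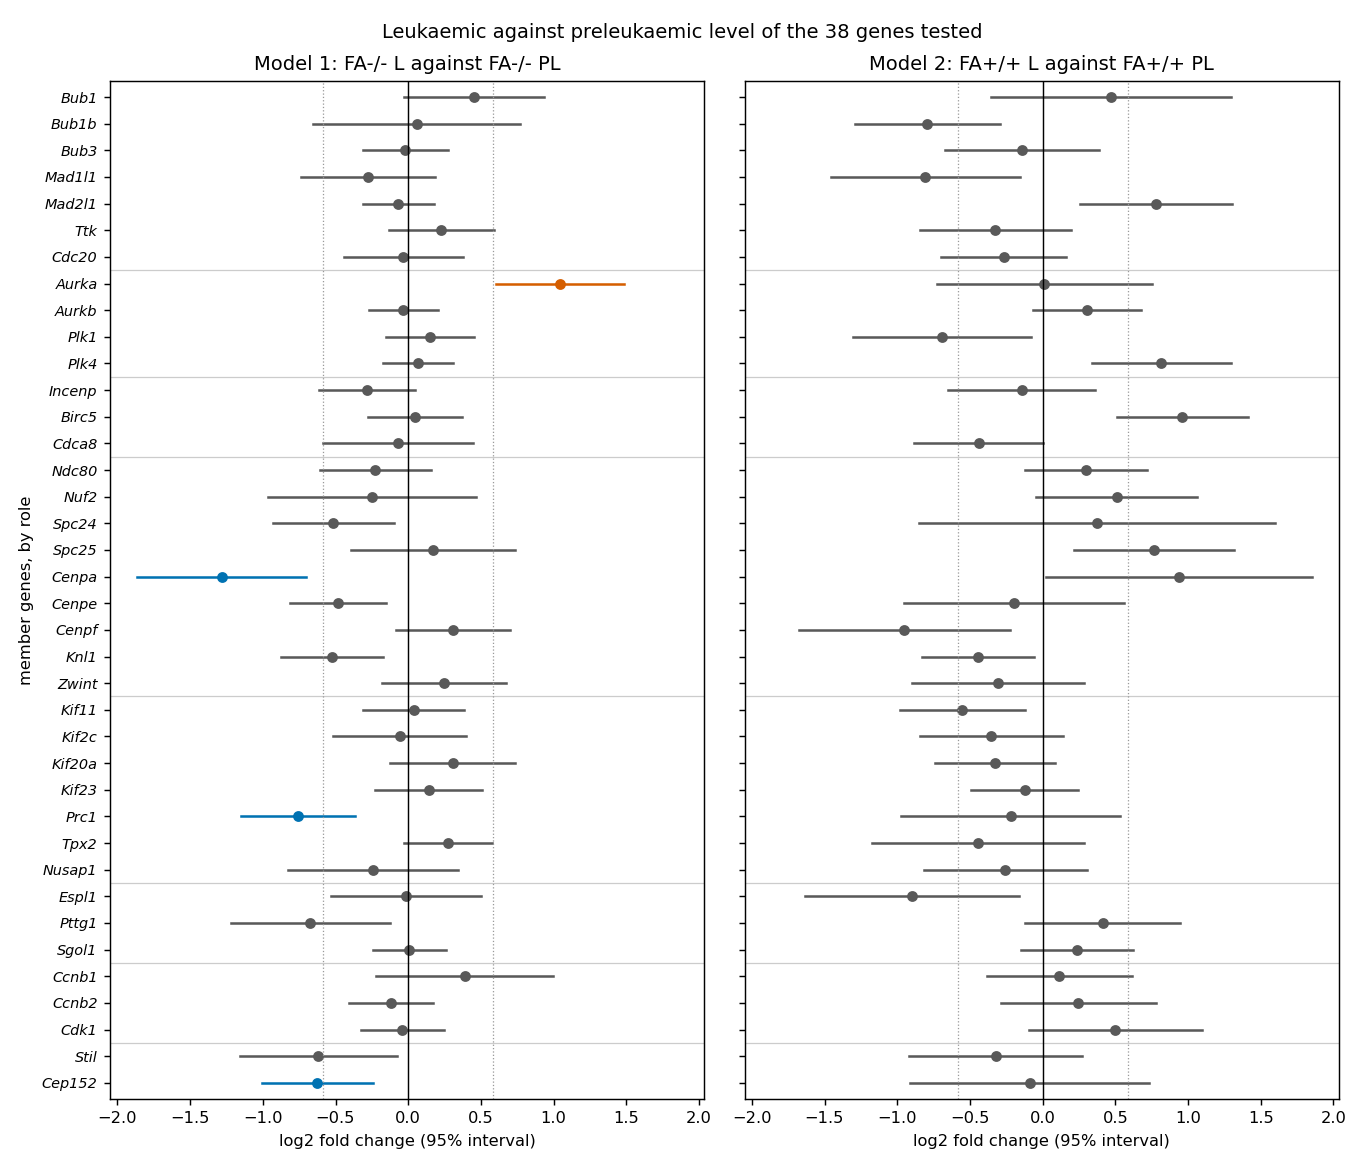
Log2 fold change of the 38 genes tested (points) with 95% intervals (lines) in leukaemic against preleukaemic cells, model 1 without FANCA on the left and model 2 on the right; orange and blue mark genes called higher and lower by edgeR, grey genes not called, and dotted lines a 1.5-fold change. On the left 4 genes are coloured and most others sit near 0, and on the right all are grey, with intervals wider than on the left for 30 of the 38.

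Whether the change with leukaemia was the same in both models was tested in 1 fit of the 17 libraries. Cenpa differed by -2.23 ± 0.50 on the log2 scale (adjusted p = 0.0345, edgeR), since it was lower in the leukaemic mice of model 1 and on average higher in those of model 2. Birc5 differed by -0.93 ± 0.25 (adjusted p = 0.0468, edgeR), with a change of 0.05 in model 1 and 0.96 in model 2. These 2 were the members called, of 38, both in the negative direction, beside 4.61% of 14597 genes (2.76% positive, 1.85% negative). Cenpf (1.25, adjusted p = 0.0519), Mad2l1 (-0.86, 0.0555), Plk4 (-0.76, 0.0563), Pttg1 (-1.10, 0.0693) and Plk1 (0.82, 0.0868) were next by edgeR and were not called. DESeq2 called all 7 of these genes, beside 14.5% of genes, and 6 when all genes of any count entered (9.22%), and edgeR with an offset for exon length called Birc5, Cenpa, Cenpf and Plk4 (4.73%). Aurka, called in model 1 only, differed by 1.02 ± 0.38 (adjusted p = 0.112, edgeR), so that its change is not shown to be particular to model 1. Kif20a, at 161, 152, 171 and 123 CPM in preleukaemic and 133, 107 and 122 CPM in leukaemic mice of model 2, differed by 0.62 (adjusted p = 0.139, edgeR). The sign of the leukaemic change was the same in both models for 20 of 38 members (52.6%) and for 54% of all genes tested in both. The models differ in strain, in the amount of RNA (400 ng and 300 ng) and in fragmentation time (8 min and 2 min). They also differ in the route to leukaemia, which in model 2 followed repeated transfusion. The study describes Kit mutations in leukaemias that arose this way, while leukemic_28 and leukemic_39 of model 1 carry an Nras mutation. The model cannot be told apart from strain, protocol, route to leukaemia and mix of mutations. Cenpa lost the call without any 1 of preleukemic_77, preleukemic_224, preleukemic_40, leukemic_28, leukemic_39, preleukemic_633, leukemic_601 or leukemic_921, and Birc5 kept it only without preleukemic_812, where 7 members were called. With DESeq2's size factors in place of TMM, Birc5 was not called (adjusted p = 0.0565, edgeR) and Cenpf was.

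Change in model 2 varied with the exon length of the gene. Over all genes the log2 fold change between leukaemic and preleukaemic cells had a Spearman correlation of -0.341 with exon length (across 12959 genes, which are not independent replicates), and its median was 0.41 in the shortest and -0.457 in the longest decile of genes. In model 1 the same correlation was -0.068. Over the 38 members it was -0.184 in model 2. The 19 shorter members had a median of 0.01 and the 19 longer ones of -0.20, and with an offset for length in each library these became -0.10 and 0.07. Cenpf, the longest member at 15433 bases of exon, went from -0.94 in DESeq2 without the offset to -0.44 with it and was no longer called. Birc5 (0.92), Plk4 (1.04), Mad2l1 (1.04) and Bub1b (-0.75) were still called by DESeq2 with the offset, and Plk1 (-0.92) joined them, 5 members beside 6.62% of genes. Cenpa, with 5860 bases, was at 1.07 with the offset. Mad2l1 (8390 bases) and Plk4 (6855 bases) thus lay above the median of genes of their length. Length here joins the exons of all annotated transcripts of a gene, and the transcripts present in these cells may be shorter. Model 2 libraries differed among themselves in this respect: correlations of a library's deviations with length were -0.18 to -0.28 in the leukaemic mice and -0.07 to 0.32 in the preleukaemic mice, with preleukemic_812 the lowest of the latter.

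**Figure D4:**
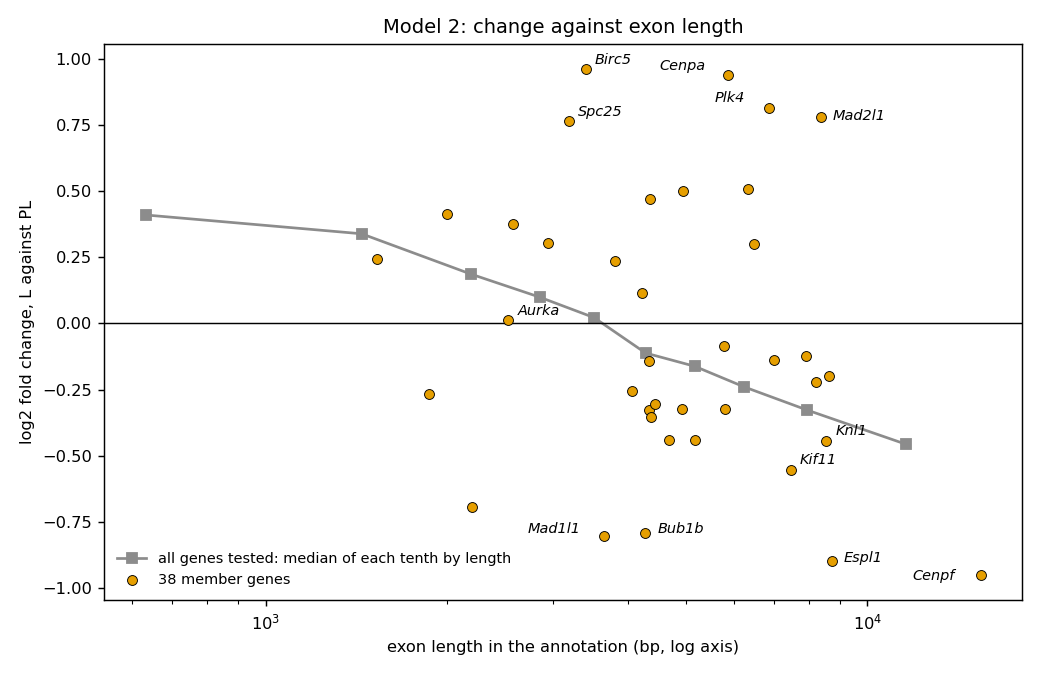
Log2 fold change of leukaemic against preleukaemic cells of model 2 (y axis) against exon length in bp (x axis, log scale) for the 38 members (orange points, 12 named) and the median of all genes in each decile of length (grey squares). The grey line falls from 0.41 to -0.457, and Plk4, Mad2l1 and Cenpa sit above it.

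Genes that work beside the members were taken as 7 lists, with 143 genes, all of which were tested. In FA-/- L against FA-/- PL, 2 were higher and 14 lower (11.2% called, beside 13.3% of all genes, 6.82% higher and 6.49% lower). In the anaphase-promoting complex, which the checkpoint restrains, Cdc16 was higher (log2 fold change 0.65, adjusted p = 0.0305, edgeR) and the 17 others were not called, of which Cdc27 passed the adjusted p but not the fold (0.54). Of 20 other motor and spindle genes 4 were lower, among them Bora (-1.04, adjusted p = 0.029, edgeR), a cofactor through which Aurora A activates PLK1, with Numa1 (-0.71), Dlgap5 (-0.74) and Kif15 (-0.64), which organize spindle poles or fibres. Of 26 other kinetochore genes only Kntc1 (-0.96, adjusted p = 0.0206, edgeR), a subunit of the complex that ZWINT brings to the kinetochore, was lower. Of 20 genes of mitotic entry and its transcription 3 were lower: Rbl2 (-2.73, adjusted p = 0.00769, edgeR) and Rbl1 (-0.67), the pocket proteins p130 and p107, and Lin54 (-0.62), the DNA-binding subunit of the complex that reads the homology region. Smc2 (-0.79) and Ncaph2 (-0.62) of 17 condensin and cohesin genes were lower. Among 16 centrosome genes Pcnt was lower (-0.72) and Nek6 higher (5.11). Among 26 replication genes Pola1 (-0.76), Pole (-0.96) and Rrm2 (-1.11) were lower. No gene of the 7 lists was called in FA-/- PL against FA+/+ PL or in model 2, where the smallest p of each list was held by Anapc11 (1.36), Gins2 (1.06), Smc1a (-1.27), Cks1b (1.07), Pcnt (-0.86), Ska1 (1.07) and Numa1 (-1.11), with an adjusted p of 0.162 for all but Pcnt (0.22, edgeR). In FA-/- L against FA+/+ PL 5 were lower and none higher (3.5%, beside 7.01% of all genes), among them Rbl2 (-2.34) and Rbl1 (-0.68). In the difference between models, 1 was positive (Nek2, 1.39) and 9 negative (6.99%, beside 4.61% of all genes, 2.76% positive and 1.85% negative), among them Rbl2 (-2.66), Mis12 (-1.07) and Ska2 (-1.03), both kinetochore genes, and Anapc11 (-1.89).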

How the data were processed

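RNA was sequenced from cultured erythroid blasts of 17 TgSpi1 mice, 1 library per mouse. The authors deposited raw counts per gene, made from polyA-selected stranded libraries. Per the submitters' processing notes the tools were bcl2fastq 2.17.1.14, STAR 2.5.3a and HTSeq 0.6.1p1, with mm10. A second deposited count table held 7 of the model 1 mice. How it differed from the first is not given in the sources used here, and its counts were tested separately.

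Counts were tested with edgeR 4.0.16 (R 4.3.3; TMM scaling, filterByExpr, quasi-likelihood test) in 1 fit per model, and in 1 fit of all 17 libraries for the difference between models. A gene was called at a Benjamini-Hochberg adjusted p under 0.05, over all genes tested, and a fold change of at least 1.5. CPM used TMM-scaled totals. Intervals are 95%. Alternatives included DESeq2 1.42.0, other filters and scalings, offsets for exon length and leaving out each mouse. Scripts were tested on simulated data. Gene models were GENCODE's for GRCm38, and exon length was the union of the exons of all transcripts of a gene.

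Values are given per library for members called in any comparison, for the 4 smallest p in each direction, and for the highest member of each role. Of other lists, up to 4 called genes or the smallest p were named. Members, lists and tests were chosen with earlier results of these data known. Mice preleukemic_445 and preleukemic_479 differed by far less than other pairs (chi-square per degree of freedom 8.531 against 114 to 414) but by more than sampling noise, and counted as 2. The column names of preleukemic_40, preleukemic_77 and preleukemic_224 say leukaemic where the titles say preleukaemic, and the titles were used.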

Additional observations from a re-analysis of the deposited data

Results flagged for a closer look

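Of 76 combinations of a gene with a group of 4 libraries, 10 had 1 library that stood apart from the other 3 by Dixon's test at its 95% level, which flags about 1 in 20 groups of independent libraries by chance. That rate does not hold for FA+/+ PL, which gave 7 of the 10, since preleukemic_445 and preleukemic_479 were nearly alike there (chi-square per degree of freedom 8.531, against 141.6 to 183.8 for the other pairs of the group) and a further library then stands apart more easily. In FA+/+ PL mice of model 1, 5 of the 10 came from preleukemic_451: Cenpa (440.1 CPM, others 248.1 to 273.1), Cenpf (134.4 CPM, others 108.7 to 112.9) and Cdk1 (239.4 CPM, others 207.8 to 212.2) were highest there, and Knl1 (139.4 CPM, others 197.7 to 202.4) and Nusap1 (89.06 CPM, others 166.6 to 181) were lowest. The mouse preleukemic_138 was highest for Aurka (178.9 CPM, others 141.3 to 147.1) and lowest for Prc1 (111.3 CPM, others 168.7 to 169.9). In the preleukaemic mice of model 2, Nuf2 was highest in preleukemic_663 (151 CPM, others 90.73 to 94.76), Cdk1 in preleukemic_812 (276.5 CPM, others 175.2 to 192.5) and Cep152 in preleukemic_837 (50.22 CPM, others 29.55 to 32.02).

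The leukaemic change differed between the models for Cenpa (-2.23 on the log2 scale) and Birc5 (-0.93), by the test of the difference itself in edgeR. Leaving out 1 mouse raised the adjusted p to as much as 0.0827 for Cenpa and 0.108 for Birc5 (edgeR). Here too the model cannot be told apart from strain, protocol, route to leukaemia and mix of mutations.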

How the results depend on the processing

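No paired analysis was possible because the replicate numbers are mouse numbers, which no groups share. For members called or among the 4 smallest p in each direction, no log2 fold change reversed its sign in the alternatives run. Of their values, 631 kept their side of the threshold, 70 lost the call and 35 gained it. Only genes called in the main fit could lose the call, and most of the genes followed were not called there. The 631 values are thus mostly genes that stayed uncalled and do not show that the calls were stable. Over all 38 members signs did change. In FA-/- L against FA-/- PL 5 turned by DESeq2 and 5 with length offsets, all within 0.0712 of 0 in edgeR, among them Mad2l1, Bub3 and Cdc20. In model 2 length offsets turned 7: Aurka, Bub3, Ccnb2, Cenpe, Cep152, Kif23 and Prc1. FA-/- L against FA-/- PL had 4 members called, 0 when the fold was tested against 1.5 and 2 with exon length offsets, which also turned the median from -0.03358 to 0.04021. Leaving out 1 mouse gave 0 to 3 called and medians of -0.09998 to 0.05396. FA-/- PL against FA+/+ PL gave 0 throughout. FA-/- L against FA+/+ PL had 2 called, 4 by DESeq2 with or without the filter and by adjusted p alone, and 0 with the fold tested against 1.5, with only the groups compared, with preleukemic_445 and preleukemic_479 as 1 library and in the second table. Leaving out 1 mouse gave 0 to 5. Model 2 had 0 called without any 1 mouse, 5 by DESeq2, 1 by DESeq2 without a filter and 5 by DESeq2 with length offsets. The difference between models had 2 called, 1 without a filter, 4 with a filter of 1 CPM in 3 libraries, 7 by DESeq2, 6 by DESeq2 without a filter, 0 with the fold tested against 1.5 and 4 with length offsets. Leaving out 1 mouse gave 0 to 7, and medians of -0.1459 to 0.08236. The causes were not tested. DESeq2 without the filter, length offsets and the second table were chosen after seeing the data. Groups held 3 or 4 mice, and the parts of spread between mice and of read depth in the width of the intervals were not separated.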
